A study of Homo sapiens with 34 samples.

Results

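The genes of haem biosynthesis were followed through the blood differentiation of H1 cells, an established line of human embryonic stem cells. The members were taken by name from the expression table, in pathway order: ALAS1, ALAS2, ALAD, UROS, UROD, CPOX, PPOX and FECH, which make haem, and HMOX1, which breaks it down. These are 9 of the 20255 genes in the table, and each was found in 1 row.

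Haem is built from glycine and succinyl-CoA along a chain of enzymes that starts in the mitochondrion, passes through the cytosol and returns to the mitochondrion. The first step, the condensation that makes 5-aminolevulinate, is carried out by ALAS1 in most cells and by ALAS2 in erythroid cells, where haem is needed for haemoglobin. ALAS1 is known to be held down by haem itself, while HMOX1, haem oxygenase 1, is known to be induced by haem and to be abundant in macrophages that clear red cells.

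The 34 samples were 1 sample of undifferentiated, untreated H1 cells and 3 replicates of each of 11 differentiated populations. Unsorted cells were taken as embryoid bodies on day 0, with BMP4 and VEGF as the agents of the mesodermal induction, and as total cells on days 2 and 4. CD43- and CD43+ cells were sorted on days 6, 9 and 12, and CD43-CD45- and CD43+/CD45+ cells on day 16; below, the day 16 fractions are called CD43- and CD43+ as well. The treatment label is hVEGF for all populations from day 2 on. Per the labels, VEGF was the sole growth factor in the medium after the induction, no haematopoietic cytokine was added to any culture, and every population came from this 1 line. CD43 is a surface protein of blood cells. The study's methods call the replicates independent biological repeats, and they name 2 sequencing providers, with no assignment of samples to either used here.

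Every value below is a normalized value made by the authors from gene counts and rounded to whole numbers. The sorted values were the same in all 34 samples (each sample sums to 17856940, with a median of 197 and a highest value of 90700), so a value shows a gene's place among the genes of its sample, and the depth of sequencing is unknown. The values are not per gene length, so levels were compared between populations for each gene and not between genes. A gene was said to pass when its adjusted p was below 0.05 in limma, with Benjamini-Hochberg adjustment over the 19788 genes tested, and to be called when it also differed by more than 4-fold, which is 2 on the log2 scale. Differences are on the scale of log2(value + 1), given with their standard error (SE), with 3 replicates in each population. The SE and p of a gene rest on 1 spread shared by all 11 replicated populations, and not on the populations compared alone. All 9 members had values high enough to be tested.

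The blood content of the sorted fractions differed strongly by day, and the markers are given here because they move with the members. The summed value of 14 erythroid marker genes, which do not include ALAS2, lay between 138532 and 163193 in day 6 CD43+ cells and between 197963 and 338400 in those of day 9. The later CD43+ cells held less, 10740 to 28587 (day 12) and 19423 to 54131 (day 16). In CD43- cells it stayed between 609 and 1483 on days 6, 9 and 12 and was 5780 to 9528 on day 16. The summed value of 8 macrophage markers, which do not include HMOX1, was at most 1215 in day 6 CD43+ cells and 3299 in those of day 9, but at least 21121 in those of day 12 and 60193 in those of day 16. Of the CD43- fractions, that of day 12 was uneven, with macrophage marker sums of 317, 5185 and 6756 in replicates 1 to 3 and values of 4, 197 and 371 for PTPRC, the gene of CD45. The day 6 fractions overlapped in markers of other cells of the culture: the summed value of 5 mesenchymal markers was 56714 to 128944 in CD43+ cells and 86926 to 112301 in CD43- cells, and that of 4 endothelial markers was 27880 to 37571 and 30191 to 90782. In the CD43+ cells of later days the mesenchymal sum was at most 16100 and the endothelial sum at most 10527. In these bulk samples, fewer cells of a type and less RNA of a gene per cell cannot be told apart.

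ALAS2, the erythroid enzyme of the first step (ENSG00000158578, chrX:55009055-55031064 in GRCh38, minus strand), had the widest range of any member. It was listed at 6, 0 and 0 on day 0, at 5, 6 and 6 on day 2, and at 71, 62 and 150 on day 4. In day 6 CD43+ cells it was 3748, 4028 and 2876, and in those of day 9 it was 8671, 4234 and 7764. These were the highest populations for ALAS2, and their ranges did not overlap. In day 12 CD43+ cells it was 131, 187 and 115, and in those of day 16 it was 317, 324 and 198. The CD43- cells held 6, 6 and 3 on day 6 and 14, 12 and 6 on day 9, were listed at 0 in all 3 samples on day 12, and held 35, 49 and 75 on day 16. Its span overlaps that of APEX2 on the opposite strand, and whether the counting used the strand is not given in the sources used here.

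ALAS1, the enzyme of the same step in most cells (ENSG00000023330, chr3:52198086-52214327, plus strand), had its high values at the other end of the time course. It lay between 670 and 857 in the undifferentiated and unsorted samples and between 381 and 508 in both day 6 fractions. In day 9 CD43+ cells it was 612, 708 and 722. In day 12 CD43+ cells it was 2619, 3754 and 3820, and in those of day 16 it was 2636, 2196 and 2441, and these overlapping populations stood above all others. The CD43- cells of days 9 to 16 lay between 537 and 852. Across the 12 population means, on the log2 scale, the Pearson correlation of ALAS1 with ALAS2 was 0.15, a description over populations that share the line and the normalization.

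The sequence just upstream is shown for ALAS2 and CPOX, the members called in CD43+ cells on both day 6 and day 9, and for ALAS1, whose high values came later. ALAS2 and CPOX each hold the letters GATAA 2 times in the 250 bases before the RefSeq start, and ALAS1 holds none. GATAA is the core of the site bound by GATA factors such as GATA1. The sequences are from RefSeq (GRCh38.p14), read 5′ to 3′ on the strand of the gene, with GATAA or its reverse complement TTATC in capitals. They end before the span of the gene in the expression table, except the short stretch with the second ALAS2 match, which lies inside that span and before the RefSeq start.

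ALAS2, chrX:55031065-55031227, minus strand: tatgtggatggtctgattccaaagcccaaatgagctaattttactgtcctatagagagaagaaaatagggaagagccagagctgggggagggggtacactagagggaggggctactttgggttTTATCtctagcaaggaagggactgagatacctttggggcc
ALAS2, second match, chrX:55030993-55031017, minus strand: gaggagaaggGATAAatgccaggtc
CPOX, chr3:98593724-98593861, minus strand: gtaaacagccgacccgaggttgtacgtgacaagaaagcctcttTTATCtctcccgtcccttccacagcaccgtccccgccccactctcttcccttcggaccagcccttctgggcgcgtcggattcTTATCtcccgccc
ALAS1, chr3:52197833-52198082, plus strand: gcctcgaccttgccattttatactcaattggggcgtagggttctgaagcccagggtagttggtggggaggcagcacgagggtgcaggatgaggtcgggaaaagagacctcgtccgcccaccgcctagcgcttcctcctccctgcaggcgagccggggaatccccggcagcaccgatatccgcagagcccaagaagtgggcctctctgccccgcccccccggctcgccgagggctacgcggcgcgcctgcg

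The same 250 bases were searched on both strands in the 9 windows of the 7 members with an entry, and UROS and HMOX1 had no entry. Of all 35116 windows in the table, 20.4% hold GATAA at least once and 3.9% at least 2 times. Besides ALAS2 and CPOX, 1 of the 2 PPOX windows holds GATAA once, and the windows of ALAS1, ALAD, UROD and FECH hold none. CACCC, the core bound by Krüppel-like factors such as KLF1, occurs 2 times in the ALAS2 window, in matches that share 1 base, and not in those of UROD, CPOX and FECH; 54.7% of all windows hold it. TGANTCA, the core bound by NFE2 and AP-1 factors, occurs once in the ALAS2 window, in no other member's, and in 6.6% of all windows. GGGCGG, the GC box, is absent from the ALAS2 window and is held by at least 1 window of each of the other 6 members, against 42.6% of all windows. No match of one motif overlapped a match of another. A match in this window is a description of letters and does not show binding.

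**Figure D1:**
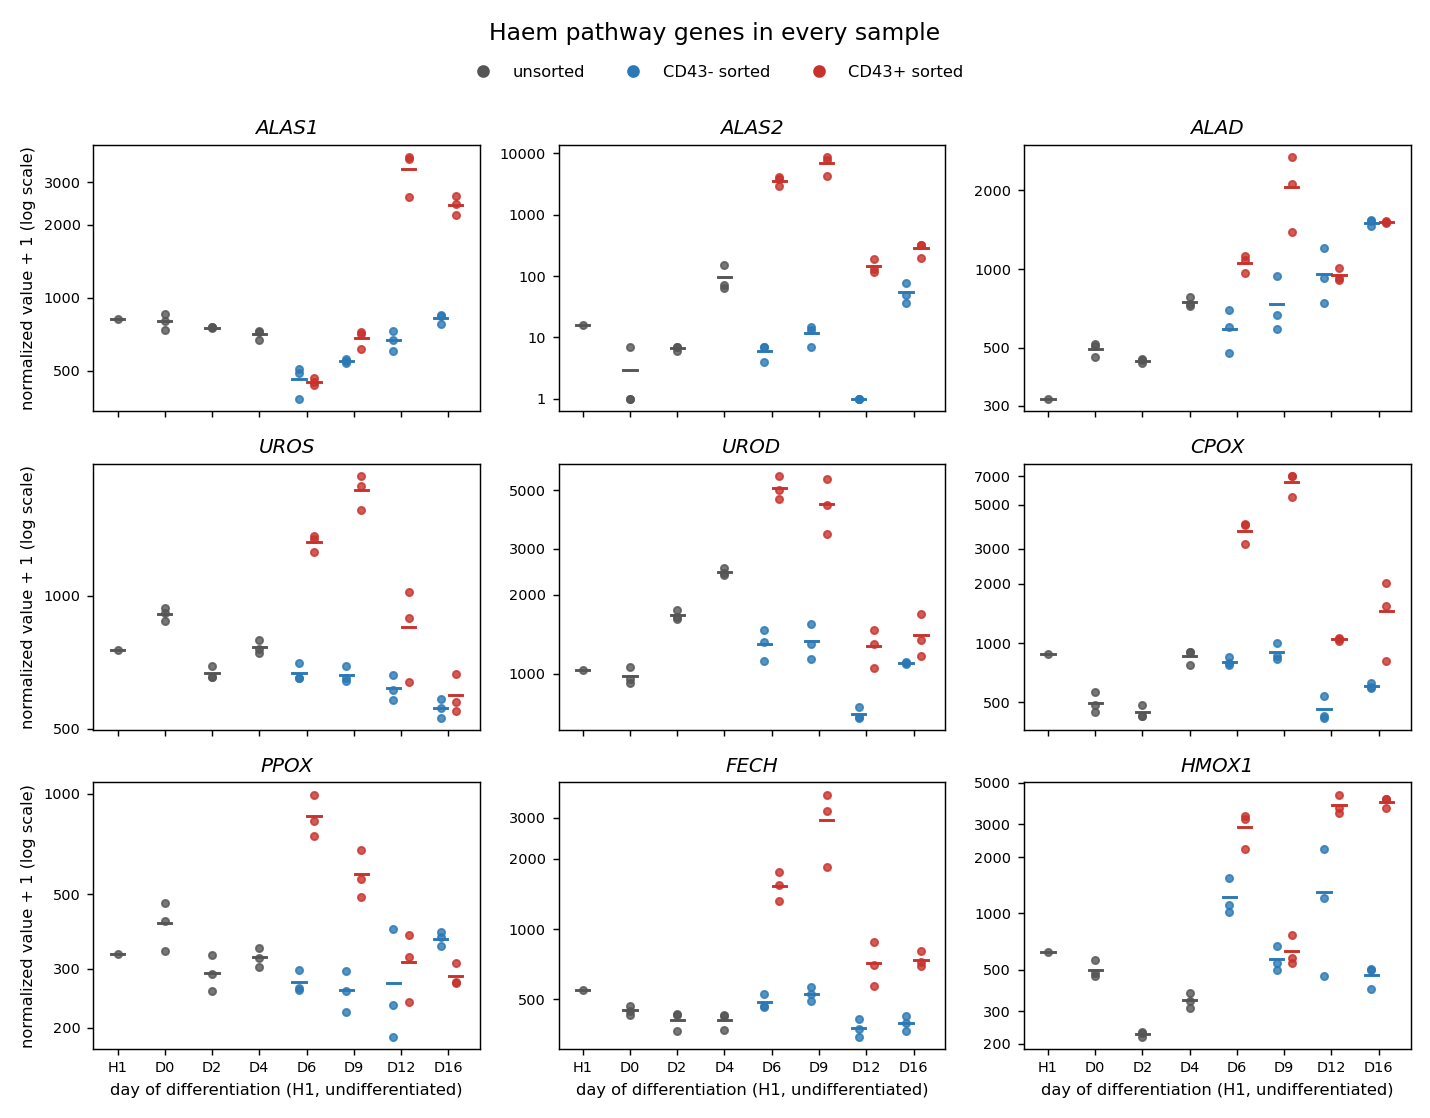
Normalized value plus 1 (log axis) of the 9 genes in each of the 34 samples, by day, with undifferentiated H1 cells at the left; points are samples, bars are population means, and colours mark unsorted, CD43- and CD43+ cells. ALAS2, CPOX and FECH peak in day 9 CD43+ cells, while ALAS1 and HMOX1 are highest in CD43+ cells of days 12 and 16.

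The cytosolic enzymes rose in the early CD43+ cells from levels that could be measured before any CD43+ cells were sorted. ALAD, which makes porphobilinogen (ENSG00000148218, chr9:113386317-113401333, minus strand), was 1120, 1084 and 962 in day 6 CD43+ cells and 2680, 1388 and 2116 in those of day 9. By day 16 it was 1498 to 1526 in CD43+ cells and 1456 to 1531 in CD43- cells, so that the fractions overlapped at a level above that of day 6. UROS, which closes the porphyrin ring (ENSG00000188690, chr10:125784980-125823248, minus strand), was 1366, 1344 and 1258 in day 6 CD43+ cells and 1872, 1564 and 1775 in those of day 9, against 528 to 702 in all CD43- samples. UROD, the decarboxylase that follows (ENSG00000126088, chr1:45012147-45015575, plus strand), was 5010, 5684 and 4640 in day 6 CD43+ cells and 5534, 3410 and 4406 in those of day 9. These overlapping populations were its highest, and day 4 cells, at 2387 to 2522, came next.

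The mitochondrial end of the pathway had the same early peak. CPOX, coproporphyrinogen oxidase (ENSG00000080819, chr3:98521132-98593723, minus strand), was 3167, 3990 and 3945 in day 6 CD43+ cells and 7038, 5486 and 7038 in those of day 9, against 417 to 999 in all CD43- samples. Its span in the table overlaps CLDND1 on the same strand and GPR15 on the opposite strand, so reads could have been split between these genes and its level is uncertain. PPOX, protoporphyrinogen oxidase (ENSG00000143224, chr1:161166410-161178013, plus strand, overlapping B4GALT3 on the opposite strand), was highest on day 6, at 828, 994 and 746, and lower on day 9, at 677, 490 and 554. FECH, ferrochelatase, which places iron in the ring (ENSG00000066926, chr18:57548283-57586772, minus strand), was 1539, 1756 and 1316 in day 6 CD43+ cells and 3780, 1854 and 3204 in those of day 9, against 345 to 562 in all CD43- samples. The day 9 values of CPOX and FECH lay above those of day 6 with no overlap, and for both genes the CD43+ populations of days 12 and 16 came next, in overlapping ranges.

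In day 9 CD43+ cells, replicate 2 had the lowest value of ALAS2 and of the other 6 enzymes from ALAD to FECH, and also the lowest erythroid marker sum, 197963 against 338400 and 293536. For ALAS1 it was the middle replicate and for HMOX1, at 770, the highest. The part of the erythroid markers in this spread was not tested.

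HMOX1 (ENSG00000100292, chr22:35380361-35394214, plus strand) was high on days 6, 12 and 16 but not on day 9. In CD43+ cells it was 2220, 3192 and 3304 on day 6, then 574, 770 and 542 on day 9, then 4332, 3460 and 3688 on day 12 and 4082, 3688 and 4082 on day 16. The CD43- cells held 1114, 1544 and 1018 on day 6, 500 to 666 on day 9 and 394 to 504 on day 16. On day 12 the CD43- replicates were spread from 460 through 1206 to 2220, in the order of their macrophage marker sums. Undifferentiated cells were at 622, and the lowest population was day 2, at 218 to 230.

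The comparison of CD43+ with CD43- cells asks which genes mark the blood cells on each day. On day 6, ALAS2 and every later enzyme of the pathway were higher in CD43+ cells, together with HMOX1, while ALAS1 did not pass. Of the 9 members 8 passed as higher, where 28.9% of all genes tested did, and 2 were called as higher, where 4.69% of all genes were. The median difference of the 9 members was 1.64 and that of all genes 0.14. ALAS2 differed by 9.24 ± 0.51 (adjusted p = 1.06e-13) and CPOX by 2.20 ± 0.19 (adjusted p = 3.85e-10). UROD, at 1.98 ± 0.15, was just under 4-fold (2.07 without replicate 3 of the CD43- cells and 2.04 without replicate 3 of the CD43+ cells, both called), FECH was at 1.66 ± 0.17 and PPOX at 1.64 ± 0.20. UROS differed by 0.99 ± 0.11, ALAD by 0.85 ± 0.18 and HMOX1 by 1.25 ± 0.30, the latter with adjusted p = 0.00113. The ALAS1 difference was -0.02 ± 0.12, with a 95% interval from -0.27 to 0.22. The size of the ALAS2 difference rests on values of 3 to 6 in CD43- cells and was 7.88 with a pseudocount of 10.

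On day 9 the same enzymes stood higher in CD43+ cells, and FECH exceeded 4-fold as well. In that comparison 8 of 9 members passed as higher, against 38.5% of all genes, and 3 were called as higher, against 8.65%. The median over the members was 1.47 and over all genes 0.24. ALAS2 differed by 9.21 ± 0.51 (adjusted p = 2.02e-14), CPOX by 2.86 ± 0.19 (adjusted p = 7.21e-13) and FECH by 2.42 ± 0.17 (adjusted p = 3.06e-12). UROD was at 1.72 ± 0.15, ALAD at 1.47 ± 0.18, UROS at 1.39 ± 0.11 and PPOX at 1.15 ± 0.20. ALAS1 passed at 0.31 ± 0.12 (adjusted p = 0.0243), but with median-of-ratios scaling, another way to scale the samples, it was 0.10 and did not pass. HMOX1 did not pass, at 0.14 ± 0.30 with an interval from -0.48 to 0.75, and its sign turned with the same scaling.

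On day 12 ALAS1 took the place of CPOX and FECH among the genes that differed by more than 4-fold. Of the members, 7 passed as higher, against 38.9% of all genes, and 2 were called as higher, against 11.8%, with a median of 0.91 over the members and 0.22 over all genes. ALAS1 differed by 2.33 ± 0.12 (adjusted p = 1.89e-15), with no overlap of the fractions. ALAS2 was called from 115 to 187 in CD43+ cells against CD43- cells listed at 0, for which no fold is given. CPOX was at 1.19 ± 0.19, FECH at 0.91 ± 0.17, UROD at 0.85 ± 0.15 and UROS at 0.44 ± 0.11 with overlapping fractions, while PPOX and ALAD did not pass, at 0.25 ± 0.20 and 0.01 ± 0.18. HMOX1 differed by 1.83 ± 0.30 (adjusted p = 5.82e-06), and this value turned on the uneven CD43- replicates: it was 1.22 without replicate 1, 2.35 without replicate 3 and 3.05 with replicate 1 as the sole CD43- sample, and in the last 2 cases HMOX1 was called too, which made 3 members. The part of macrophage RNA in the CD43- fraction was not tested.

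On day 16 the late pattern held for HMOX1, while the ALAS2 difference was smaller than on days 6 and 9. In that comparison 6 of 9 members passed as higher, against 37.3% of all genes, and 2 were called as higher, against 12.2%, with a median of 0.90 over the members and 0.14 over all genes. HMOX1 differed by 3.09 ± 0.30 (adjusted p = 8.24e-10) and ALAS2 by 2.41 ± 0.51 (adjusted p = 0.000154). ALAS1 was at 1.56 ± 0.12, CPOX at 1.16 ± 0.19, FECH at 0.90 ± 0.17 and UROD at 0.33 ± 0.15 (adjusted p = 0.0484). PPOX, at -0.37 ± 0.20, was lower in each CD43+ replicate (270 to 312) than in each CD43- replicate (350 to 384) and did not pass (adjusted p = 0.099). UROS and ALAD did not pass, at 0.09 ± 0.11 and 0.01 ± 0.18. The day 16 CD43- samples held erythroid marker sums of 5780 to 9528 beside their ALAS2 values of 35 to 75, and the part of these markers was not tested. No member passed as lower in CD43+ cells on any of the 4 days.

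**Figure D2:**
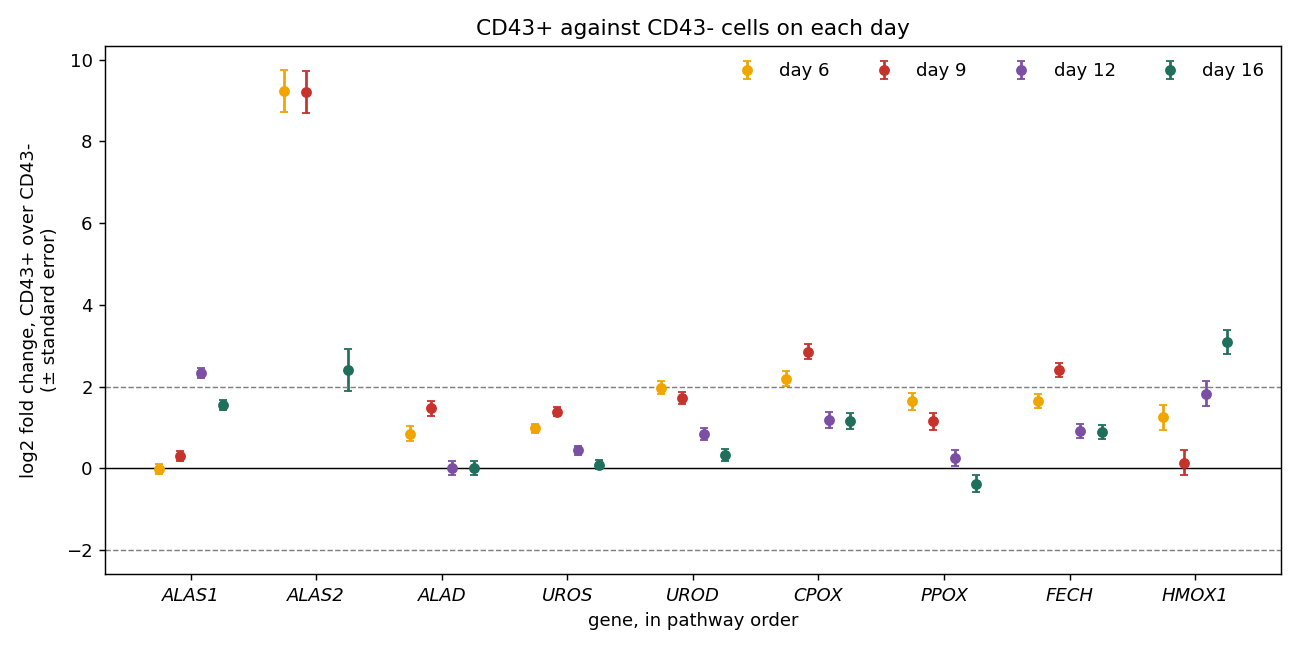
Log2 fold change of CD43+ over CD43- cells (vertical axis) for the 9 genes in pathway order on days 6, 9, 12 and 16; points are limma estimates, bars are ± 1 SE with 3 replicates per fraction, and dashed lines mark 4-fold. No point is drawn for ALAS2 on day 12, where the CD43- cells were listed at 0. CPOX and FECH are largest on day 9, ALAS1 on day 12 and HMOX1 on day 16.

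The change of the CD43 difference from one day to the next was tested for each gene. From day 6 to day 9, 1 of 9 members passed, FECH at 0.76 ± 0.24 (adjusted p = 0.029), where 18.2% of all genes passed, and none was called, where 7.39% were. From day 9 to day 12 every member passed, where 27.4% of all genes did, and 2 were called, ALAS1 and ALAS2, where 9.0% were. ALAS1 and HMOX1 gained 2.02 ± 0.17 and 1.69 ± 0.43, while CPOX fell by 1.67, FECH by 1.51, ALAD by 1.46, UROS by 0.95, PPOX by 0.90 and UROD by 0.88. ALAS1 stood near the 4-fold line and was not called, at 1.93 to 1.95, without replicate 1 of the day 9 CD43+ or day 12 CD43- cells or without replicate 2 or 3 of the day 12 CD43+ cells. The ALAS2 call was lost, with adjusted p from 0.0602 to 0.0941, without replicate 3 of the day 9 CD43- cells, replicate 1 or 3 of the day 9 CD43+ cells or replicate 1 or 3 of the day 12 CD43+ cells. For HMOX1, leaving out day 12 CD43- samples gave 1.08 (without replicate 1), 2.22 (without replicate 3, called) and 2.91 (with replicate 1 as the sole sample, called). From day 12 to day 16, 3 members passed, against 17% of all genes, and 1 was called, ALAS2, against 5.03%. ALAS1 fell by 0.78 (adjusted p = 0.00215), and HMOX1 gained 1.27 ± 0.43 (adjusted p = 0.0402), a value that was 0.05 with replicate 1 as the sole day 12 CD43- sample and that did not pass without replicate 2 (1.18) or replicate 3 (0.74) of those cells. The ALAS2 changes into and out of day 12 rest on samples listed at 0: the first turned to 1.12 (adjusted p = 0.552) with a pseudocount of 0.1 and lost its call with median-of-ratios scaling (-1.84, adjusted p = 0.0557), and the second was -1.70 and not called with a pseudocount of 10.

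The successive populations were compared for each gene. From day 0 to day 2, 4 of 9 members passed, against 36.4% of all genes, and none was called, against 7.88%. UROD rose by 0.77 ± 0.15, UROS fell by 0.44 and HMOX1 fell by 1.14, from 462 to 560 down to 218 to 230. ALAS2 passed on values of 0 to 6, which are too low to give a direction, and without replicate 1 of day 0, the sample at 6, it was called. From day 2 to day 4, 4 members passed, against 36.1% of all genes, and 1 was called, against 9.50%. ALAS2 rose by 3.73 ± 0.51 (adjusted p = 1.45e-06), CPOX by 0.94 ± 0.19, ALAD by 0.74 ± 0.18 and UROD by 0.55 ± 0.15. These rises preceded the first sort for CD43, while FECH, at 370 to 426, did not pass.

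From day 4 to day 6 the pathway parted with the sort. In CD43+ cells all 9 members passed, against 51.9% of all genes, and 3 were called, against 14.5%: ALAS2 rose by 5.32 ± 0.51, HMOX1 by 3.07 ± 0.30 and CPOX by 2.10 ± 0.19. FECH rose by 1.91 ± 0.17 (2.02, and called, without replicate 3 of the CD43+ cells), PPOX by 1.39 ± 0.20, UROD by 1.06 ± 0.15, UROS by 0.79 ± 0.11 and ALAD by 0.50 ± 0.18. ALAS1 fell by 0.65 (adjusted p = 4.96e-05). In CD43- cells 4 members passed, against 45% of all genes, and 1 was called, against 7.71%. ALAS2 fell by 3.92, UROD by 0.91 and ALAS1 by 0.63, while HMOX1 rose by 1.82 ± 0.30 (adjusted p = 2.22e-05). Thus ALAS1 was lower and HMOX1 higher than on day 4 in both fractions, which share the day 4 samples. The day 4 cells were unsorted and the day 6 cells sorted, so the day and the sort cannot be told apart in these comparisons.

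Within CD43+ cells, days 6 to 9 brought further rises for some enzymes, and ALAS1, which was lower on day 6 than on day 4, rose too. Here 7 of 9 members passed, against 29.8% of all genes, and 1 was called, against 7.53%. ALAD rose by 0.92 ± 0.18, FECH by 0.89 ± 0.17, CPOX by 0.82 ± 0.19, ALAS1 by 0.59 ± 0.12 and UROS by 0.39 ± 0.11. PPOX fell by 0.58 and HMOX1 fell by 2.20, the called change (adjusted p = 2.28e-06). ALAS2, at 0.90 ± 0.51, was higher in every day 9 replicate than on day 6 and did not pass (adjusted p = 0.194). UROD, at -0.22 ± 0.15 with overlapping replicates, did not pass either (adjusted p = 0.282). Between the same samples the mesenchymal marker sum went from 56714 or more to 8234 or less and the endothelial sum from 27880 or more to 10527 or less. The neutrophil granule sum went from at most 113 to at least 21823, and that of 5 megakaryocyte markers from at most 9928 to at least 24595, and the part of these markers was not tested.

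From day 9 to day 12 the enzymes other than ALAS1 fell in CD43+ cells, while ALAS1 and HMOX1 rose. All 9 members passed, against 56.3% of all genes, and 5 were called, against 15.0%. ALAS2 fell by 5.53 (adjusted p = 9.77e-10), CPOX by 2.63 (adjusted p = 1.14e-11) and FECH by 2.0 (adjusted p = 3.05e-10). FECH stood at the 4-fold line: its change was -1.79 without replicate 1 and -1.91 without replicate 3 of the day 9 CD43+ cells, and -1.85 without replicate 3 of the day 12 CD43+ cells, none of them called, and it was also not called without replicate 2 of the day 12 CD43+ cells. Nor was it called with median-of-ratios scaling (-1.83) or a pseudocount of 10 (-1.99), which left 4 members called. UROD fell by 1.79, ALAD by 1.07, UROS by 1.05 and PPOX by 0.89. ALAS1 rose by 2.30 ± 0.12 (adjusted p = 2.8e-14) and HMOX1 by 2.61 ± 0.30 (adjusted p = 4.52e-08). In these same samples the erythroid marker sum went from 197963 or more to 28587 or less, and the macrophage sum from 3299 or less to 21121 or more. The sum of the 4 neutrophil granule markers went from 21823 to 30104 on day 9 to 137413 to 154295 on day 12, and the part of this shift in cell types was not tested. From day 12 to day 16, 3 members passed, against 42.4% of all genes, and none was called, against 9.05%. ALAD rose by 0.68 ± 0.18, UROS fell by 0.49 and ALAS1 by 0.47, both with overlapping replicates.

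Within CD43- cells, the first step moved few members. From day 6 to day 9, HMOX1 was the 1 member that passed, against 6.65% of all genes, falling by 1.09 (adjusted p = 0.0272), and none was called, against 1.75%. From day 9 to day 12, 5 members passed, against 36.7% of all genes, and 1 was called, against 7.33%. CPOX fell by 0.96, UROD by 0.91 and FECH by 0.49, and ALAS2 went from 6 to 14 to being listed at 0. HMOX1 passed as higher, at 0.92 ± 0.30, with overlapping replicates; it did not pass without replicate 2 (0.84) or 3 (0.40) of day 12 or with replicate 1 as the sole day 12 sample (-0.30), and was 1.53 without replicate 1. From day 12 to day 16, 6 members passed, against 45.6% of all genes, and 1 was called, ALAS2, against 10.4%. ALAD rose by 0.68 ± 0.18, UROD by 0.65 ± 0.15, PPOX by 0.51 ± 0.20 and ALAS1 by 0.31 ± 0.12. Blood markers moved in the same samples. The megakaryocyte sum went from 153 to 862 on day 12 to 4114 to 12419 on day 16. The neutrophil granule sum went from 80 to 6286 to 6093 to 19907, and the erythroid sum from at most 1330 to at least 5780. The macrophage sum was 317, 5185 and 6756 in day 12 replicates 1 to 3 and 649 to 1006 on day 16. The part of these markers was not tested. HMOX1 passed as lower, at -1.21 ± 0.30, with overlapping replicates, and was -1.82 without replicate 1, -0.69 without replicate 3 and 0.00 with replicate 1 as the sole day 12 sample.

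The value of ALAS2 relative to that of ALAS1 was followed by subtracting log2(ALAS1 + 1) from log2(ALAS2 + 1) in each sample. Since the values are not per length, the difference within a sample says nothing of which enzyme was more abundant, and changes between populations were compared. In CD43+ cells it was 2.97 ± 0.21 (SD, n = 3) on day 6 and 3.28 ± 0.64 on day 9. It then stood at -4.56 ± 0.42 (day 12) and -3.14 ± 0.44 (day 16). The day 6 and day 9 samples, from 2.58 to 3.82, did not overlap those of days 12 and 16, from -5.04 to -2.76. CD43+ cells exceeded CD43- cells by 9.26 on day 6, 8.90 on day 9 and 4.82 on day 12, each with an exact two-sided permutation p of 0.1, the smallest that 3 against 3 samples allow, and by 0.86 on day 16 with p = 0.2. For that reason none of the 4 comparisons could reach 0.05 by this test. The day 12 value rests on ALAS2 listed at 0 in CD43- cells and was 1.61 with a pseudocount of 10 and 8.13 with a pseudocount of 0.1.

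**Figure D3:**
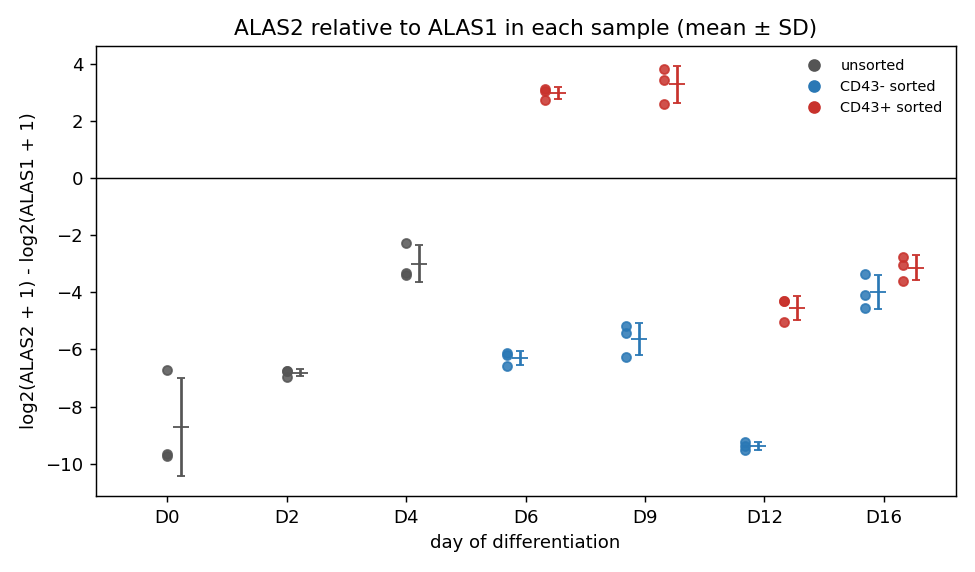
Difference between log2(ALAS2 + 1) and log2(ALAS1 + 1) (vertical axis) in each replicated sample by day; points are samples, dashes with bars beside them are the mean ± SD of 3 replicates, and colours mark unsorted, CD43- and CD43+ cells. The CD43+ samples lie above 2 on days 6 and 9 and below -2 on days 12 and 16.

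Members differed in how closely they moved together across the 12 population means. The closest pair was CPOX and FECH, with a Pearson r of 0.97, followed by CPOX and ALAS2 at 0.92. ALAS1 had r between -0.28 and 0.23 with the other biosynthetic enzymes and 0.51 with HMOX1. These values describe 12 means from a single line and carry no test.

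Among all genes in the fit, those most like ALAS2 by this measure included EPB42 (r = 0.973), of the red cell membrane, and CD160 (0.946). Those most like CPOX included FAM185A (0.948) and TST (0.947). FECH was most like FAM185A (0.963) and STXBP5 (0.962). PPOX was most like TMEM14C (0.929), a mitochondrial carrier of protoporphyrinogen, followed by RP11-673E1.4 (0.921) and DCAF8L2 (0.906). UROS was most like MRPL24 (0.954), MRPS25 (0.923) and NDUFV1 (0.92), which are mitochondrial ribosomal and respiratory chain genes. ALAD was nearest to TMEM87B (0.96), TMBIM1 (0.949) and RP11-678G14.3 (0.947), and UROD to CTNNBL1 (0.944), C7orf34 (0.942) and HACD1 (0.933). ALAS1 was nearest to NTNG2 (0.962), UPK3A (0.957) and CLEC17A (0.957). HMOX1 was nearest to ARHGAP27 (0.934), RP11-13J8.1 (0.902) and LINC01252 (0.898).

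Genes that supply the pathway were counted by lists. Beside the counts below, the shares of all genes that passed as higher were 28.9% (day 6), 38.5% (day 9), 38.9% (day 12) and 37.3% (day 16). Of 14 genes of haem and porphyrin transport and precursor supply, 7 passed as higher and 5 as lower in CD43+ cells on each of days 6 and 9. On day 12, 7 passed as higher and 3 as lower, and on day 16, 5 and 3. The day 16 count of 5 in 14 as higher was near the 37.3% of all genes. Shares of all genes that passed as lower are not given here, so counts as lower in these lists are not read as a result. SLC25A37, the mitochondrial iron importer mitoferrin 1, was 7637, 8088 and 7780 in day 6 CD43+ cells against 744 to 798 in CD43- cells, a difference of 3.34 ± 0.14, and differed by 3.51 ± 0.14 on day 9. ABCB10, its partner in the inner membrane, differed by 1.68 ± 0.15 on day 6 and 2.61 ± 0.15 on day 9, and ABCB6, a porphyrin transporter, by 2.24 ± 0.24 and 2.32 ± 0.24. SLC48A1, which carries haem out of lysosomes, was called on day 6 at 2.25 ± 0.14. ABCG2, a porphyrin exporter, was lower in CD43+ cells by -4.36 ± 0.48 on day 6 and -3.24 ± 0.48 on day 9. On days 12 and 16, FLVCR2 was the 1 gene of this list that was called, at 2.81 ± 0.28 and 3.54 ± 0.28, while SLC25A37 was at 0.86 ± 0.14 and 0.57 ± 0.14. SLC25A38, the mitochondrial glycine carrier, named here although it was not called, was at 0.30 ± 0.10 on day 6 and -0.59 ± 0.10 on day 16. The list's median on days 6, 9, 12 and 16 was 0.17, 0.62, 0.27 and 0.08, against 0.14, 0.24, 0.22 and 0.14 over all genes.

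Of 7 mitochondrial iron-sulphur and cofactor genes, 5, 6, 5 and 3 passed as higher on days 6, 9, 12 and 16, and 2 passed as lower on day 16, with medians of 0.52, 0.60, 0.46 and 0.15. The day 16 count of 3 in 7 was near the 37.3% of all genes. The 2 that passed as lower were ISCU, the scaffold of iron-sulphur assembly, at -0.39 ± 0.08 and SUCLA2, a subunit of succinyl-CoA synthetase, at -0.61 ± 0.15. Of the 3 further genes of haem breakdown, BLVRB, a biliverdin reductase, passed as higher on all 4 days, at 2.78 ± 0.24, 3.11 ± 0.24, 1.54 ± 0.24 and 1.19 ± 0.24. HMOX2, the constitutive haem oxygenase, and BLVRA did not pass on any of the 4 days, with HMOX2 at -0.17 ± 0.14 on day 6 and -0.21 ± 0.14 on day 16. The BLVRB difference was largest on day 9, where HMOX1 did not pass. The list's median was 0.25, 0.17, -0.14 and -0.21 on the 4 days.

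Of 4 iron uptake and storage genes, 3, 4, 4 and 3 passed as higher on days 6, 9, 12 and 16. TFRC, the transferrin receptor, was called early, at 2.90 ± 0.25 (day 6) and 2.55 ± 0.25 (day 9), and differed by 0.79 ± 0.25 on day 12 and -0.12 ± 0.25 on day 16. STEAP3, the endosomal ferrireductase, was called on each day, at 3.13 ± 0.37, 4.55 ± 0.37, 3.71 ± 0.37 and 3.78 ± 0.37. FTH1, the ferritin heavy chain, was at 0.93 ± 0.19 on day 6 and was called on day 16 at 2.48 ± 0.19. The list's median was 1.91, 1.80, 1.25 and 1.69 on the 4 days, beside the 0.14, 0.24, 0.22 and 0.14 over all genes.

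Of 9 regulators tied to haem, 6, 6, 6 and 4 passed as higher on days 6, 9, 12 and 16, the last near the 37.3% of all genes. GATA1, KLF1 and NFE2, all activators of erythroid genes, were called on each day, with KLF1 in day 12 CD43- cells at 0. In CD43+ cells GATA1 was 2865, 2616 and 2677 on day 6, then 3858, 3487 and 3720, then 321, 1012 and 782, and on day 16 it was 1582, 2210 and 870. KLF1, which is also in the erythroid marker list, was 3108, 2804 and 2530 on day 6, then 2612, 1828 and 2074, then 114, 216 and 218, and on day 16 it was 486, 526 and 350. Both were therefore lower on day 12 than on day 9 in every sample, as ALAS2 was, and KLF1 was listed at 0 in the same 3 day 12 CD43- samples as ALAS2. The 2 that act on HMOX1 are named for that role, although neither was called. BACH1, its haem-sensitive repressor, passed on days 6 and 12, at 0.38 ± 0.15 and 0.35 ± 0.15, and NFE2L2, an activator, on day 12 at 0.39 ± 0.16. PPARGC1A, a coactivator of ALAS1, was lower in CD43+ cells on day 9, at -2.39 ± 0.49, and did not pass on day 12, at -0.11 ± 0.49, the day of the largest ALAS1 difference. Within CD43+ cells it was called as lower from day 6 to day 9 and as higher from day 9 to day 12. Its CD43 difference was also called as higher from day 9 to day 12, as that of ALAS1 was. The part of PPARGC1A in the ALAS1 values was not tested. The list's median was 0.88, 1.04, 0.39 and 0.62 on the 4 days.

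**Figure D4:**
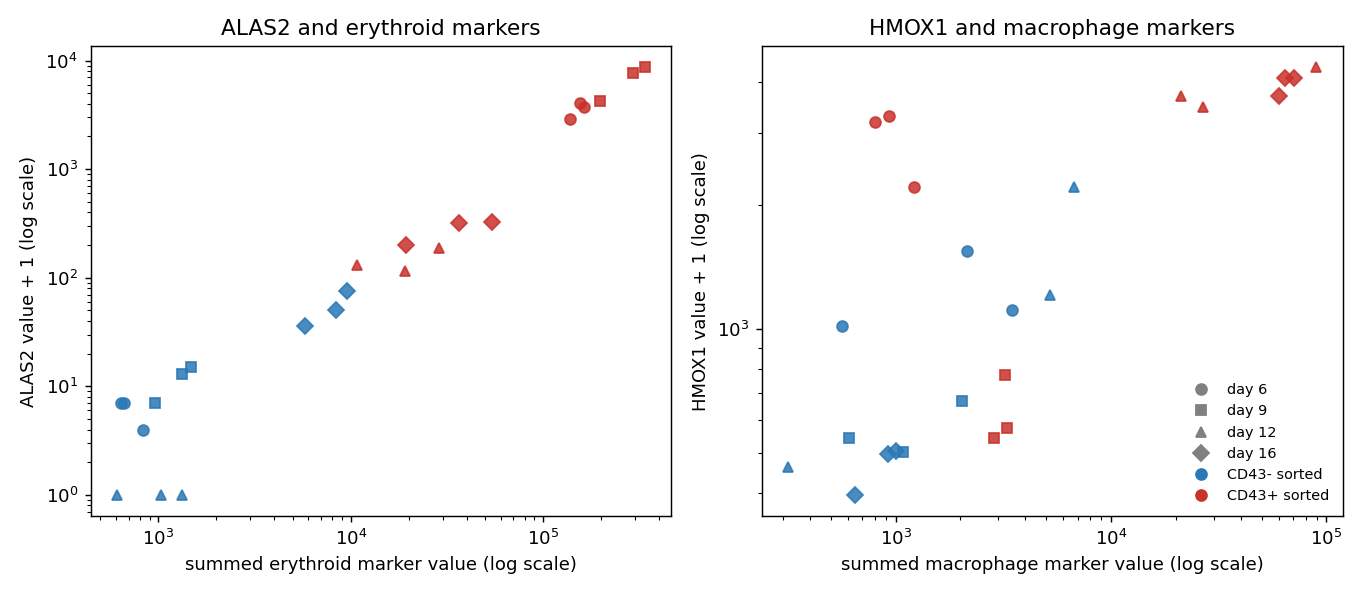
ALAS2 value plus 1 against the summed erythroid marker value (left) and HMOX1 value plus 1 against the summed macrophage marker value (right) in the 24 sorted samples, all axes on log scales; shapes mark days and colours the CD43 fraction. ALAS2 is highest where the erythroid sum is highest, in CD43+ cells of days 6 and 9, while the day 6 CD43+ samples carry HMOX1 values of 2220 to 3304 at macrophage sums of 803 to 1215.

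The marker sums follow ALAS2 across the sorted samples and HMOX1 in part of them, as the plot of both genes against their markers shows. On days 12 and 16 the CD43+ samples combine the highest HMOX1 values, from 3460 to 4332, with macrophage sums of 21121 to 89724. On day 6 the HMOX1 values of CD43+ cells, 2220 to 3304, came with macrophage sums of 803 to 1215, and C1QA, C1QB and MARCO were listed at 0 in all 3 of these samples. Other markers of the same list went the other way. CSF1R was called as higher in CD43+ than in CD43- cells on day 6, and CSF1R and MRC1 were called as higher in day 6 CD43+ cells than on day 4. The part of macrophage RNA in these HMOX1 values was not tested. The day 6 CD43- samples, with HMOX1 at 1018 to 1544, had macrophage sums of 566 to 3467. On day 9 the CD43+ samples had higher macrophage sums, 2849 to 3299, and lower HMOX1 values, 542 to 770.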

How the data were processed

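RNA-seq of H1 cells was analysed in 34 samples. The deposited values are scores: per the study's methods and the submitters' notes, the authors aligned reads to hg38, counted genes with Bowtie2 and RSEM (the notes also name bcl2fastq and STAR 2.7), normalized the counts for GC content with EDASeq, and the table holds them as whole numbers with the same sorted values in every sample. They are not raw counts, so no count test was run, and depth and counting error are unknown. Whether strand was used in counting is not given in the sources used here.

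The 9 members, the gene lists and the tests were chosen with earlier results of these data known. Named were all members, list genes called in a CD43 comparison, and for each member the 3 genes with the highest Pearson correlation over 12 population means, except a few items that are not reported here. Genes named outside this rule were chosen after their values were seen, as were the ALAS1 and CPOX sequences. Groups followed the sample labels.

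The 17 comparisons were fitted with limma 3.58.1 (R 4.3.3) on log2(value + 1) over the 33 replicated samples, with a trended variance and two-sided tests. The single undifferentiated sample stayed out of the fit. Of 20255 genes, 19788 reached a value of 10 in 3 or more samples, and 467 were not tested. A count test was not run because the values are scores. For each gene 1 spread between replicates was pooled over the 11 replicated populations of 1 line and moderated over genes. The p-values rest on that spread, so an uneven population widens the SE of a gene in every comparison. The main fit held no replicate block, so no samples were taken as pairs, and a block was used in the alternatives alone. Same-numbered CD43- and CD43+ samples deviated together on day 6 (r of 0.198, 0.109 and 0.199). On the other days at least 1 pair was below 0.1.

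RefSeq windows of 250 bases were searched with Python 3.11.15, numpy 2.4.6 and pandas 2.3.3, and figures were drawn with matplotlib 3.10.9. Alternatives changed the pseudocount, filter, scaling, variance estimate, fold threshold, samples fitted, replicate block and single replicates. Of the scalings, quantile normalization could change nothing, because all samples already had the same sorted values.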

Additional observations from a re-analysis of the deposited data

Results flagged for a closer look

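The CD43 difference, CD43+ minus CD43- on the log2 scale, changed between successive days by the interaction test of limma (adjusted p below 0.05) in 13 cases. From day 6 to day 9 it changed for FECH by 0.76 ± 0.24 (SE; adjusted p = 0.029).

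From day 9 to day 12 it changed for every member. ALAS1 changed by 2.02 ± 0.17 (adjusted p = 1.66e-09) and HMOX1 by 1.69 ± 0.43 (adjusted p = 0.00358), the latter 1.08 without replicate 1 of the day 12 CD43- cells and 2.91 with it as the sole sample. The other members changed in the opposite direction: CPOX by -1.67 ± 0.27, FECH by -1.51 ± 0.24, ALAD by -1.46 ± 0.25, UROS by -0.95 ± 0.16, PPOX by -0.90 ± 0.28 and UROD by -0.88 ± 0.21, with adjusted p from 3.26e-05 (CPOX) to 0.0176 (PPOX). The fitted value for ALAS2 was -2.06 ± 0.72 (adjusted p = 0.0327); the day 12 CD43- samples were listed at 0, and with a pseudocount of 0.1 the value turned to 1.12 (adjusted p = 0.552).

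From day 12 to day 16 it changed for ALAS1 by -0.78 ± 0.17 (adjusted p = 0.00215) and for HMOX1 by 1.27 ± 0.43 (adjusted p = 0.0402), and HMOX1 was at 0.05 (adjusted p = 0.934) with replicate 1 as the sole day 12 CD43- sample. The fitted value for ALAS2 was -4.74 ± 0.72 (adjusted p = 5.59e-05), and it was -1.70 with a pseudocount of 10.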

How the results depend on the processing

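Over the alternatives other than the fold threshold, 1684 values were recomputed, which were fold changes of members and the ALAS2 minus ALAS1 differences. Of these, 1653 were kept, 19 lost a call, 9 gained one and 3 reversed. A kept fold change had the same direction and call, and a kept difference the same sign. A kept value can still have stopped passing. HMOX1 did so in CD43- cells for day 12 against 9 without replicate 2 of day 12 (adjusted p = 0.0621). The 94 values with quantile normalization were fixed in advance, since the sorted values were already the same. With a pseudocount of 0.1 the change in the ALAS2 difference between days 9 and 12 reversed to 1.12 (adjusted p = 0.552). With replicate 1 as the sole day 12 CD43- sample, a setting chosen after seeing the data that assumes it varies like the other samples, HMOX1 in CD43- cells was -0.30 (day 12 against 9, adjusted p = 0.401) and 0.00 (day 16 against 12, adjusted p = 0.999); over the samples left out, these values ranged from -0.30 to 1.53 and from -1.82 to 0.00.

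The count of members called was 1 with a pseudocount of 0.1 for day 2 against day 0 and for the change from day 9 to 12, and 0 with a pseudocount of 10 for CD43- day 12 against 9 and for the change from day 12 to 16. Median-of-ratios scaling gave 1 for the change from day 9 to 12 and shifted the median of all genes by -0.14 on day 6 and -0.21 on day 9. A fit of the compared populations alone gave 0 for CD43- day 12 against 9. There ALAS2, at 14, 12 and 6 on day 9 and listed at 0 on day 12, fell below the filter and was not tested. The cause of the other changes was not tested. With single replicates left out, the count was 0 to 1 for day 2 against day 0 and 0 to 3 for the change from day 9 to 12.

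With a fold threshold of 2 the counts were 6, 7, 4 and 4 for the CD43 comparison on days 6, 9, 12 and 16, 2 for day 2 against 0, 6 and 2 for day 6 CD43+ and CD43- against day 4, 8 for CD43+ day 12 against 9, 1 and 2 for CD43- day 9 against 6 and day 16 against 12, and 6 and 2 for the changes from day 9 to 12 and 12 to 16. The shares of all genes at 2-fold are not given here, so these counts show how calls depend on the threshold and are not read as a result about the members. With any fold the counts were 8, 8, 7 and 6 for the CD43 comparison, 4 and 4 for the steps to days 2 and 4, 9 and 4 for day 6 against day 4, 7, 9 and 3 for the later CD43+ steps, 1, 5 and 6 for the CD43- steps, and 1, 9 and 3 for the changes. These are the members that passed, given above beside the shares of all genes.

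With the replicate block, all 136 values kept their direction and call, and 2, 3, 2 and 2 members were called in the CD43 comparison on days 6, 9, 12 and 16. Depth is unknown, so no limit of detection can be given.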
